A study of Mus musculus with 2 samples.

Results

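The Hox genes are a family of homeobox genes that lie in 4 clusters (a to d) in the mouse genome and are numbered by their place in the cluster, so that genes of the same number in different clusters are paralogs. They were taken here as every gene row with a symbol made of Hoxa, Hoxb, Hoxc or Hoxd and a number, which gave 32 of the 16943 nuclear genes with a row in the data. Cluster a (chromosome 6) held 9 of them, cluster b (chromosome 11) 9, cluster c (chromosome 15) 7 and cluster d (chromosome 2) 7. A further 7 mouse Hox genes (Hoxa11, Hoxa13, Hoxb13, Hoxc11, Hoxc12, Hoxd10 and Hoxd12) had no row and were not analysed here.

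The cells came from mouse small intestinal organoids, which are epithelial cultures, of jejunum and ileum together. The genotype is given as Neurog3-RFP hom, a red fluorescent reporter of Neurog3 (Ngn3), the transcription factor at the start of the enteroendocrine lineage. RFP-positive cells were sorted 1 to a well. The ISX-9 plate held cells from organoids given the small molecule ISX-9 for 48 h, and the DMSO plate held cells from organoids given the solvent DMSO for 48 h. Both plates share the genotype, the mixture of both gut segments and the sort, and no wild-type or unsorted cells were used here. There was 1 plate of 384 wells for each treatment, so treatment and plate cannot be told apart, wells are not replicates of a treatment, and no test between the plates was made. No source used here gives the number of animals or cultures behind each plate.

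Hox proteins are transcription factors that bind DNA through a homeodomain, mostly together with the TALE homeodomain proteins of the Pbx and Meis families. In the embryo the genes with low numbers are active from the head end on and those with high numbers progressively nearer the tail, an order that follows their order along the chromosome. The gut keeps part of this pattern along its length in the adult, in the epithelium and in the mesenchyme, and the related homeobox genes Cdx1 and Cdx2 are known regulators of Hox genes there.

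Promoter sequences are shown for 4 members that set the pattern described below: Hoxa5 and Hoxb4 had the most reads of their clusters and were read in both plates, while the reads of Hoxa9 and Hoxb8 came nearly all from the ISX-9 plate. The sequences are the 250 bases before the annotated start, 5′ to 3′ on the gene's own strand, from RefSeq on GRCm38.p6. Hoxa5 is at chr6:52204588-52204837 (minus strand), Hoxb4 at chr11:96318017-96318266 (plus strand), Hoxa9 at chr6:52227371-52227620 (minus strand) and Hoxb8 at chr11:96281655-96281904 (plus strand). Capitals mark TTTATG on either strand, the core of the Cdx binding motif.
Hoxa5: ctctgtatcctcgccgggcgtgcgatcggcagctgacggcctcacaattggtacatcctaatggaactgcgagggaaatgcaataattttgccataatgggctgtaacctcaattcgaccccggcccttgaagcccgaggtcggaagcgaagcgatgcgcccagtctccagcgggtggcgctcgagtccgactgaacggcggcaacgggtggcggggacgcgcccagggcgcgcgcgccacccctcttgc
Hoxb4: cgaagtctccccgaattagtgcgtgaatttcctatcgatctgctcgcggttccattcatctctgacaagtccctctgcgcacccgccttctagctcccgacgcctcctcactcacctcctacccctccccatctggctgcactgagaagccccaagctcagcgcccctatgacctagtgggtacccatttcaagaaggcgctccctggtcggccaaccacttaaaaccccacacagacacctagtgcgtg
Hoxa9: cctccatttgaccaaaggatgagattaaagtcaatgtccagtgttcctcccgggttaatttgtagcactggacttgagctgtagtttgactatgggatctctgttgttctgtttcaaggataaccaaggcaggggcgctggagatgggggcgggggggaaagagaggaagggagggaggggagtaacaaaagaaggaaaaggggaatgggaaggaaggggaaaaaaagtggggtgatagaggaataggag
Hoxb8: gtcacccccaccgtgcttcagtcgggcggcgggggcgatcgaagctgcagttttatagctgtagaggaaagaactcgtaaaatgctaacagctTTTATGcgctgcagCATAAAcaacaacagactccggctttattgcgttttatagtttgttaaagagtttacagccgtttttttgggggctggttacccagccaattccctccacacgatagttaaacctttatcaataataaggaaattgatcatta
The window of Hoxb8 held TTTATG in each orientation and the other windows shown held none. Of the 32 members, 18 had a promoter in the table, with 20 promoters in all, of which 5 held the motif (Hoxa7, Hoxb8, Hoxd3, Hoxd4 and Hoxd11), beside 10.8% of 32851 promoters of all genes. The Hox-Pbx motif TGATTNAT was in 2 of the 20 (Hoxa2 and Hoxd11), beside 2.82% of all promoters. A match is a run of letters and not a measured binding site.

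The deposited values are read counts per gene and well. Wells with at least 2000 nuclear reads and 500 genes were kept, 290 in the ISX-9 plate with 11801859 reads and 300 in the DMSO plate with 14754827 reads, with medians of 22509.5 and 26340 reads per well. Levels are CPM, a plate's reads summed over kept wells and scaled to its nuclear reads, with exact 95% Poisson intervals. The log2 ratio is taken of (CPM + 5) in ISX-9 over DMSO. The added 5 understates differences of low genes. For a fold against a plate with no read of a gene, that plate was taken at a floor of 3 reads, 0.254 CPM in ISX-9 and 0.203 CPM in DMSO. Reads are amplified copies and not molecules, so intervals cover counting error only. The libraries prime at the poly(A) tail, so counts are not scaled by gene length, and levels are compared between plates and not between genes. Neurog3 itself stood at 2990 CPM in ISX-9 and 679 CPM in DMSO. The summed markers of enterochromaffin cells, a serotonin-making endocrine type, stood at 16057 CPM in ISX-9 and 15259 CPM in DMSO. Most of each sum was Chgb alone, at 11870 CPM in ISX-9 and 10774 CPM in DMSO. Among these 7 markers, 4 had a positive log2 ratio and 3 a negative one. The 3 were Tph1 (484 CPM in ISX-9, 717 CPM in DMSO), Chga (863 and 1639 CPM) and Lmx1a (36.5 and 65.9 CPM). Summed peptidergic endocrine markers stood at 2958 CPM in ISX-9 and 5898 CPM in DMSO. Goblet cell markers summed to 4067 and 9412 CPM, and Paneth cell markers to 2846 and 11806 CPM. Markers of several secretory types were thus read in both plates.

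Hox reads were higher in the ISX-9 plate as a whole, and the difference was larger for the genes with high numbers. All members together had 336 CPM (326 to 347) in ISX-9 and 162 CPM (156 to 169) in DMSO, a 2.07-fold difference and a log2 ratio of 1.03. At least 1 Hox read was present in 193 of 290 ISX-9 wells, or 66.6% (exact 95% Clopper-Pearson interval 60.8 to 72.0), and in 135 of 300 DMSO wells, or 45% (39.3 to 50.8). After each kept well was thinned to 2000 reads, 102 ISX-9 wells and 52 DMSO wells still had a Hox read. The median log2 ratio of the 11007 nuclear genes with at least 100 reads was 0.15, below the ratio of the Hox sum.

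Of the 32 members, 31 had a read in a kept well, 19 of them in both plates, 10 in ISX-9 alone and 2 in DMSO alone. Hoxd1 had none in kept wells. The 2 read in DMSO alone were Hoxb1, a hindbrain patterning gene, with 1 read, and Hoxc13, known for hair development, with 2 reads. Those read in ISX-9 alone were Hoxa9, Hoxa10, Hoxb7, Hoxc5, Hoxc9, Hoxc10, Hoxd8, Hoxd9, Hoxd11 and Hoxd13, with 2 to 121 reads each. Since rare genes often fall in 1 plate by counting, the comparison was also made over genes with at least 20 reads. Of the 23 members with so many, 6 were read in ISX-9 alone, where 1.4% of 13223 genes were, and 0 in DMSO alone, where 0.295% were. A gene read in 1 plate alone reaches 20 reads through that plate only, so these counts are not independent of the limit. Over genes with any read, the shares of all genes were 8.22% for ISX-9 alone and 6.27% for DMSO alone.

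The 12 members with at least 100 reads over both plates are described one by one. All 12 had a positive log2 ratio, with a median of 0.62 and a range of 0.33 to 1.61. The median of all genes with as many reads was 0.15, so most of those were positive too. Of the 12 members, 3 (Hoxb6, Hoxb7 and Hoxc6) were at least 2-fold higher in ISX-9 by this ratio, where 5.33% of all genes with as many reads were. Of the 12, 0 were at least 2-fold lower, where 1.11% of all genes were. The 3 reached 100 reads mainly through ISX-9, with 98, 121 and 211 reads there and 7, 0 and 41 in DMSO. Their calls are therefore not independent of that limit. After thinning, 7 of the 12 were at least 2-fold higher, where 12.4% of the same 11007 genes were, and 1, Hoxa2, was at least 2-fold lower, where 4.01% were. The thinned levels of these members rested on 3 to 53 reads in ISX-9 and 0 to 33 reads in DMSO.

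**Figure D1:**
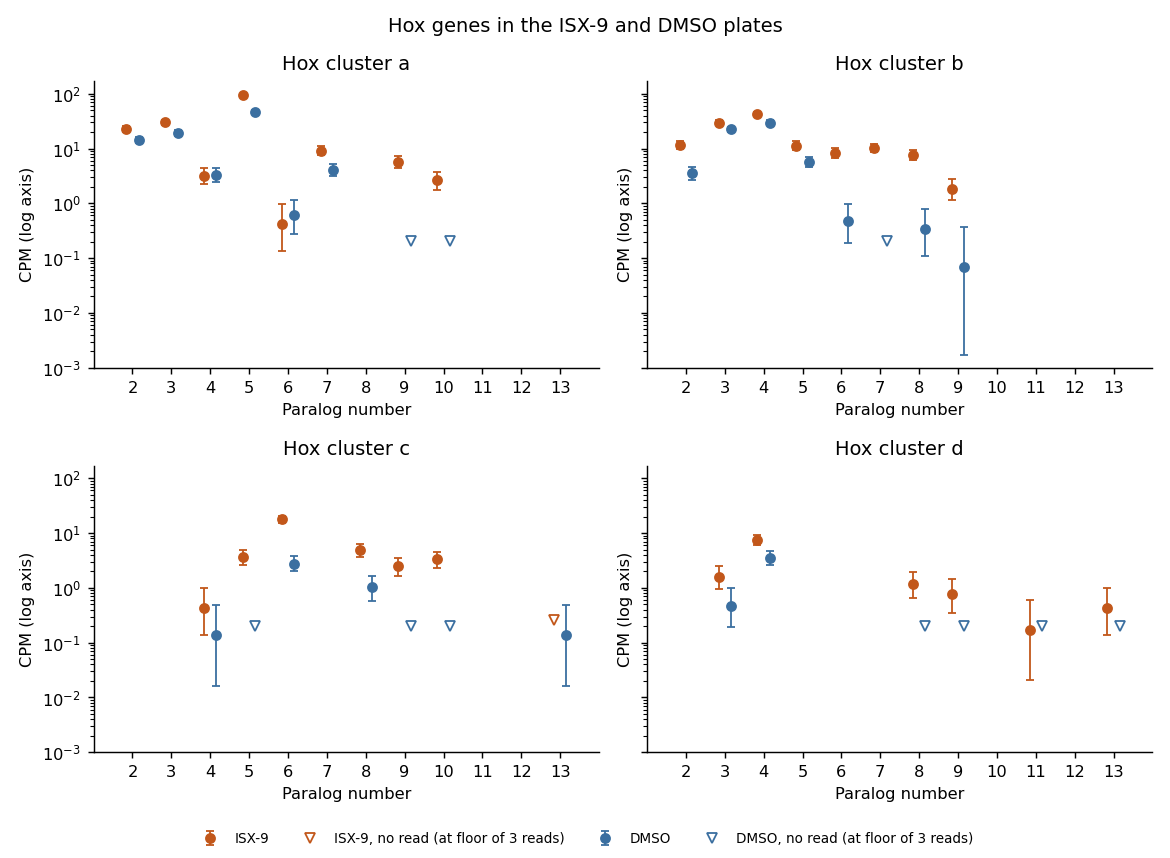
Level of Hox genes numbered 2 and above, by cluster (panels) and paralog number (x axis), in CPM on a log axis. Points are the ISX-9 plate (left of each tick) and the DMSO plate (right), bars are exact 95% Poisson intervals, and open triangles mark genes without a read, drawn at the floor of 3 reads. Most DMSO triangles and low points lie at paralog numbers of 6 and above, while genes numbered 3 and 4 of clusters a and b lie near each other in both plates.

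Among the genes of low number, Hoxa5, known from mouse mutants for its part in lung and gut development, had the most reads of all members. It stood at 93.0 CPM (87.5 to 98.6) in ISX-9, in 25.2% of wells, and at 46.2 CPM (42.8 to 49.8) in DMSO, in 16.3% of wells, with a log2 ratio of 0.94. The highest well held 7.47% of its reads in ISX-9 and 7.18% in DMSO, so no well carried the level, and thinned wells with a read were 8.97% in ISX-9 and 6% in DMSO. Without Hoxa5, the other members together had 243 CPM in ISX-9 and 115.8 CPM in DMSO, nearly the same ratio.

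Hoxb4, best known as a regulator of blood stem cells, stood at 43.4 CPM (39.7 to 47.3) in ISX-9, in 19.7% of wells, and at 29.6 CPM (26.9 to 32.5) in DMSO, in 11.3% of wells, a log2 ratio of 0.48. In DMSO 26.5% of its reads came from 1 well, against 10.4% in the highest ISX-9 well. Averaged over wells of equal weight its levels were 57.2 CPM in ISX-9 and 57.5 CPM in DMSO, a log2 ratio of -0.0075. The higher level of Hoxb4 in ISX-9 was thus absent when each well counted alike, although thinned wells with a read remained more frequent, 5.52% in ISX-9 and 2.67% in DMSO.

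Hoxb3, which acts in the hindbrain and pharyngeal arches, had the smallest difference of the 12. It stood at 29.4 CPM (26.4 to 32.7) in ISX-9, in 16.6% of wells, and at 22.4 CPM (20.02 to 24.9) in DMSO, in 11.3% of wells, a log2 ratio of 0.33. Its thinned shares were 5.86% in ISX-9 and 5% in DMSO, and the highest well held 10.7% of its reads in ISX-9 and 20% in DMSO.

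Hoxa3, needed for the thymus and parathyroid, stood at 30.1 CPM (27.03 to 33.4) in ISX-9, in 12.8% of wells, and at 19.0 CPM (16.9 to 21.4) in DMSO, in 12% of wells. The log2 ratio was 0.54 while the share of wells was nearly equal, and thinned shares were 3.79% in ISX-9 and 1.33% in DMSO. The highest well held 9.86% of its reads in ISX-9 and 15.7% in DMSO.

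Hoxa2, which sets the identity of the second pharyngeal arch, stood at 23.0 CPM (20.3 to 25.9) in ISX-9 and 14.3 CPM (12.4 to 16.4) in DMSO, a log2 ratio of 0.53. It was read in fewer wells of the plate with the higher level, 7.24% in ISX-9 and 8.33% in DMSO, and the highest well gave 18.1% of the reads in ISX-9 and 13.7% in DMSO. Thinned shares were 1.72% in ISX-9 and 1.33% in DMSO. The mean over wells gave 12.97 CPM in ISX-9 and 23.2 CPM in DMSO, a log2 ratio of -0.65, and after thinning it was -1.05, so the direction of Hoxa2 depends on how wells are weighted.

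Hoxb2, a hindbrain gene, stood at 11.7 CPM in ISX-9 and 3.52 CPM in DMSO, and the log2 ratio was 0.97. Its reads came from few wells, 3.10% in ISX-9 and 2% in DMSO, and 1 well gave 20.3% of them in ISX-9 and 53.8% in DMSO. Thinned shares were 1.72% in ISX-9 and 0 in DMSO, where 0 wells of 300, taken as at most 3 wells, allows a share of up to 1.00%.

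Hoxb5, known for its role in the enteric nervous system, stood at 11.4 CPM in ISX-9, in 8.28% of wells, and at 5.69 CPM in DMSO, in 3.67% of wells, a log2 ratio of 0.61. The highest well held 11.9% of its reads in ISX-9 and 25% in DMSO, and thinned shares were 2.76% in ISX-9 and 0.667% in DMSO. Hoxd4, a hindbrain gene of cluster d, stood at 7.63 CPM in ISX-9, in 8.28% of wells, and at 3.52 CPM in DMSO, in 2.67% of wells, a log2 ratio of 0.57.

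Among the genes of high number, Hoxb7, a trunk patterning gene, was read in ISX-9 alone. It had 121 reads in 22 ISX-9 wells, or 10.3 CPM (8.51 to 12.3), and no read in 300 DMSO wells, so it was at least 50.4-fold higher in ISX-9 than the DMSO floor, with a log2 ratio of 1.61. Its neighbour Hoxb6 had 98 reads in 16 ISX-9 wells, or 8.30 CPM (6.74 to 10.1), and 7 reads in 2 DMSO wells, or 0.474 CPM (0.191 to 0.977). This is a 17.5-fold difference (8.18 to 44.7) and a log2 ratio of 1.28. With 10 CPM added to each level in place of 5, the log2 ratio of Hoxb6 was 0.81, under the 2-fold limit.

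Hoxc6, a gene of thoracic identity, had 211 reads in 31 ISX-9 wells, or 17.9 CPM (15.5 to 20.5), and 41 reads in 5 DMSO wells, or 2.78 CPM (1.99 to 3.77), a 6.43-fold difference (4.59 to 9.22) with a log2 ratio of 1.56. In ISX-9 its highest well held 10.9% of the reads, while in DMSO 1 well held 58.5% of them. Thinned shares of wells were 2.76% in ISX-9 and 0.333% in DMSO. Hoxa7, the high-numbered gene read in the most wells of either plate, stood at 9.15 CPM in ISX-9, in 15.9% of wells, and at 4.13 CPM in DMSO, in 7.67% of wells, a log2 ratio of 0.63.

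The other 19 members with a read had 1 to 94 reads each, and 14 of them had a positive log2 ratio, at most 1.23 (Hoxb8). Hoxb8 had 89 reads in 11 ISX-9 wells and 5 reads in 2 DMSO wells, 7.54 and 0.339 CPM. Hoxa9, known from blood cells and leukaemia, had 67 reads in 16 ISX-9 wells and none in DMSO, 27.9-fold above the DMSO floor. Both lay past a 2-fold ratio, without reaching the 100 reads set for the named genes. Hoxc10 had all of its 39 reads in 1 ISX-9 well, and Hoxa4 was close in both plates at 3.22 CPM in ISX-9 and 3.32 CPM in DMSO.

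The split of reads between neighbours is uncertain for some members. In GENCODE M21, 14 members overlap another gene on their strand, and for 11 of them the other gene is a member: Hoxa3 overlaps Hoxa4, Hoxa5 and Hoxa6, Hoxc5 overlaps Hoxc6, Hoxc8, Hoxc9 and Hoxc10, and Hoxd3 overlaps Hoxd4. On the opposite strand 13 members overlap another gene. No source used here gives the counting rule or its strand setting. A sum over a cluster does not depend on how reads are divided between its members. The levels by paralog number below, and the split into low and high numbers, do depend on it. Hoxc5 overlaps only members of higher number, and Hoxa3 overlaps Hoxa6. A cluster sum would change if shared reads were dropped, counted more than once or given to genes outside the members. Neither effect was tested.

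By cluster, the ratio of the plates was larger in c than in a, b and d. Cluster a had 168 CPM in ISX-9 and 91.8 CPM in DMSO, a 1.83-fold difference, and cluster b 123.8 CPM in ISX-9 and 62.1 CPM in DMSO, 1.99-fold. Cluster c had 32.5 CPM (29.4 to 36.0) in ISX-9 and 4.07 CPM (3.10 to 5.23) in DMSO, an 8.00-fold difference (6.08 to 10.7), and was read in 51 ISX-9 wells and 8 DMSO wells. Cluster d had 11.8 CPM in ISX-9 and 4.00 CPM in DMSO, a 2.95-fold difference (2.16 to 4.06).

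Of the 31 members with a read, 26 had the higher CPM in ISX-9 and 5 in DMSO, so the direction was not the same for every gene. The median log2 ratio of all genes with at least 100 reads was 0.15, so most of those were also higher in ISX-9. Their share, to set beside this and the other counts of direction, was not computed. Among the paralog numbers given here, the ratio was smaller for 2 to 5 than for 6 to 9. Number 2 stood at 34.7 CPM in ISX-9 and 17.8 CPM in DMSO (1.94-fold). Number 5 stood at 107.9 CPM in ISX-9 and 51.9 CPM in DMSO (2.08-fold), number 3 at 61.1 and 41.9 CPM (1.46-fold) and number 4 at 54.7 and 36.6 CPM (1.49-fold). Number 6 stood at 26.6 CPM in ISX-9 and 3.86 CPM in DMSO (6.89-fold), number 7 at 19.4 and 4.13 CPM (4.69-fold) and number 8 at 13.6 CPM in ISX-9 and 1.36 CPM in DMSO. From number 9 on, DMSO was at or under the floor: number 9 had 10.8 CPM in ISX-9 and 0.0678 CPM, 1 read, in DMSO, and number 10 had 5.93 CPM in ISX-9, 65.7% of it from 1 well, and no read in DMSO.

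**Figure D2:**
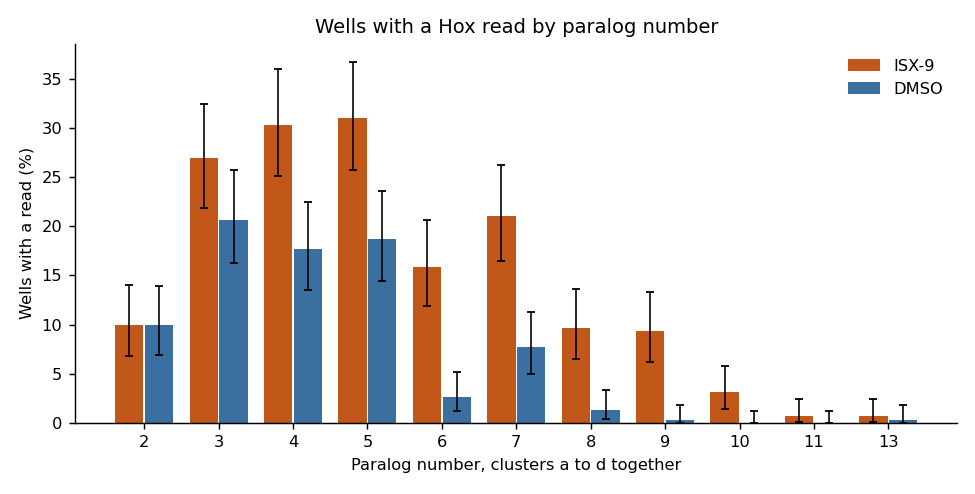
Share of kept wells with a read of at least 1 Hox gene of each paralog number from 2 on (x axis, clusters together), in percent (y axis), in the ISX-9 plate (left bars) and the DMSO plate (right bars), at full depth. Error bars are exact 95% Clopper-Pearson intervals over wells of 1 plate. Number 2 was read in 10% of wells of both plates, while number 6 was read in 15.9% in ISX-9 and 2.67% in DMSO.

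Grouped after these values were seen, paralogs 1 to 5 (15 genes) had 259 CPM in ISX-9 and 152.5 CPM in DMSO, a 1.70-fold difference (1.61 to 1.80), and paralogs 6 to 13 (17 genes) had 76.9 CPM (71.9 to 82.0) in ISX-9 and 9.56 CPM (8.04 to 11.3) in DMSO, an 8.04-fold difference (6.73 to 9.67). The high-numbered genes made up 22.9% of Hox reads in ISX-9 and 5.90% in DMSO. They were read in 109 ISX-9 wells, or 37.6%, and in 33 DMSO wells, or 11%, and in 35 and 7 wells after thinning. Of these 17 genes, 16 were read in ISX-9 and 8 in DMSO, 15 had the higher CPM in ISX-9, and Hoxa6 and Hoxc13 the higher in DMSO. The order of these ratios was not the same in every cluster and depended on the measure in c and d. The high-numbered genes had the larger ratio in a (3.77-fold against 1.72-fold) and b (31.7-fold against 1.56-fold). In cluster c the high numbers had 28.5 CPM in ISX-9 and 3.93 CPM in DMSO, 7.24-fold (5.47 to 9.74). Hoxc4 and Hoxc5 had 4.07 CPM in ISX-9 and 0.136 CPM in DMSO, 30.01-fold (7.87 to 254.9). That fold rests on 2 DMSO reads, under the floor of 3 reads, and 1 ISX-9 well held 43.8% of the reads there. With 5 CPM added, the log2 ratio in cluster c was 1.91 for the high numbers and 0.82 for the low. In cluster d the high-numbered genes had 2.54 CPM in ISX-9 and no read in DMSO, and the low-numbered ones 9.24 CPM in ISX-9 and 4.00 CPM in DMSO (2.31-fold). With 5 CPM added, the log2 ratios in cluster d were 0.59 for the high numbers and 0.66 for the low.

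The reads of high-numbered genes came from many wells with few reads each and from some wells with several members. The highest ISX-9 well held 79 such reads over 8 genes, among them 14 of Hoxb6, 21 of Hoxb7, 23 of Hoxb8 and 8 of Hoxb9. The next held 70 reads over 7 genes, of which 39 were Hoxc10. In DMSO the highest well held 31 reads over Hoxa7 and Hoxc6 alone. Without the 2 highest wells of each plate, the sums were 65.0 CPM in ISX-9 and 6.58 CPM in DMSO, a log2 ratio of 2.60 in place of 2.49.

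Markers of other cell types that a sort could let through moved with the plates. The 7 mesenchymal markers summed to 20.8 CPM in ISX-9, with Col3a1 at 0, and 3.32 CPM in DMSO, with Col3a1 and Dcn at 0. The 5 immune markers summed to 4.15 CPM in ISX-9, with Ptprc and Cd3e at 0, and 0.339 CPM in DMSO, with Cd52, Cd3e and Lyz2 at 0. The endothelial marker Pecam1 stood at 47.0 CPM in ISX-9 and 16.3 CPM in DMSO, while Kdr had 1 read in ISX-9 and none in DMSO. The 5 measured neural markers summed to 157 CPM in ISX-9 and 48.8 CPM in DMSO, mostly Tubb3 at 85.2 and 12.2 CPM and Ret at 48.1 and 32.5 CPM. Without all wells with a read of a mesenchymal marker, paralogs 6 to 13 had 77.2 CPM in 252 ISX-9 wells and 9.82 CPM in 290 DMSO wells, a log2 ratio of 2.47. Without wells with a neural marker read, the levels were lower in both plates, 41.9 CPM in 158 ISX-9 wells and 6.27 CPM in 226 DMSO wells, with a log2 ratio of 2.06. Of the 109 ISX-9 wells with a high-numbered Hox read, 66 had a neural marker read, as did 19 of 33 such DMSO wells. Over all kept wells, 132 of 290 in ISX-9 (45.5%) and 74 of 300 in DMSO (24.7%) had one. Wells with a high-numbered Hox read were also deeper than those without, with medians of 43533 against 11841 reads in ISX-9 and 59885 against 24830 in DMSO. These counts are not corrected for depth. Whether the reads of these other markers and the Hox reads have the same source was not tested.

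Reads could also pass between wells or plates. Both plates use the same 384 well barcodes. Of 513 pairs of a Hox gene and a kept well in ISX-9, 34 (6.63%) had the same gene in the same well position of DMSO, and of 269 such pairs in DMSO, 35 (13.01%) had it in ISX-9. Genes read in many wells of both plates also share positions by coincidence. The number expected from that was not computed, so these counts do not measure passed reads. The part of such reads in the levels was not tested.

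Several Hox genes were often read in the same well. At full depth an ISX-9 well had 1.77 Hox genes on average and at most 12, and a DMSO well 0.897 on average and at most 7. At least 2 members were read in 40% of wells in ISX-9 and in 19% in DMSO. Thinned to 2000 reads, the averages were 0.493 in ISX-9 and 0.207 in DMSO, and wells with at least 2 members were 8.97% and 2.33%. Among pairs, Hoxb3 and Hoxb4 were read together in 16 wells of each plate, which is 33.3% of Hoxb3 and 28.1% of Hoxb4 wells in ISX-9 and 47.1% of each in DMSO. Hoxb5, which lies between Hoxb4 and Hoxb6, shared 15 ISX-9 wells with Hoxb3, or 62.5% of its own wells and 31.3% of those of Hoxb3. Hoxb6 shared 8 ISX-9 wells with Hoxb7, 50% of its own and 36.4% of those of Hoxb7. Sharing was not limited to genes of 1 cluster: Hoxa3 and Hoxb4 were read together in 16 ISX-9 wells, 43.2% of Hoxa3 and 28.1% of Hoxb4 wells, and in 11 DMSO wells, 30.6% and 32.4% of them. Hoxa3 and Hoxc6 shared none of their 37 and 31 wells in ISX-9, and 1 well in DMSO. These pairs were picked after their values were seen. Deep wells hold reads of more genes, and these shares are not corrected for depth.

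**Figure D3:**
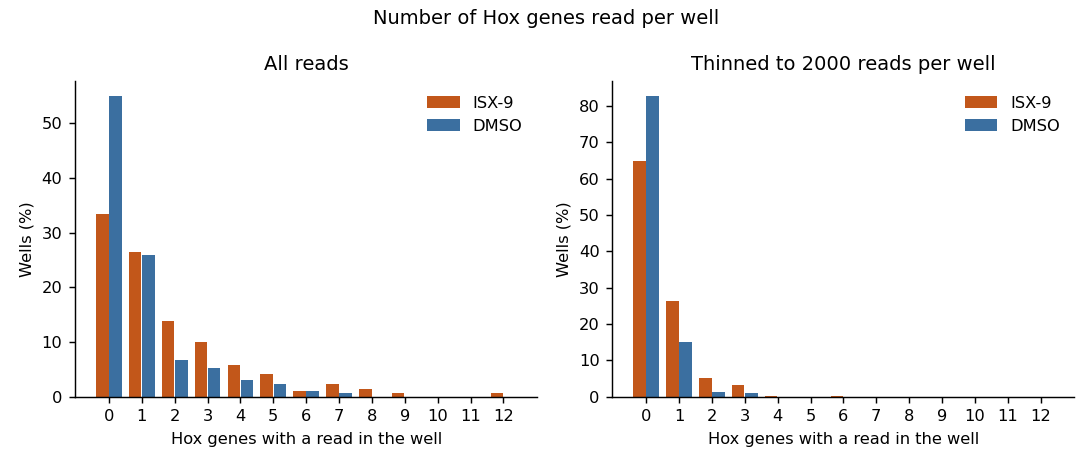
Number of Hox genes with a read in a well (x axis) against the share of kept wells in percent (y axis), in the ISX-9 plate (left bars) and the DMSO plate (right bars), with all reads (left panel) and after thinning every well to 2000 reads (right panel). The share of wells with no Hox gene was 33.4% in ISX-9 and 55% in DMSO with all reads, and 64.8% in ISX-9 and 82.7% in DMSO after thinning.

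The summed Hox level did not follow the Neurog3 level of the well closely. In ISX-9 the summed Hox level was 312 CPM (289 to 336) in the 79 wells with no Neurog3 read, 325 CPM (311 to 340) in the 106 wells with a read below 1000 CPM and 367 CPM (348 to 387) in the 105 wells with at least 1000 CPM. In DMSO it was 180 CPM (169 to 192) in 153 wells, 152 CPM (144 to 162) in 100 wells and 150 CPM (134 to 167) in 47 wells of the same 3 levels. The log2 ratio of wells at 1000 CPM or more over wells with none was 0.23 in ISX-9 and -0.26 in DMSO, and the DMSO value changed sign to 0.34 with the Neurog3 limit at 500 CPM. At each level the Hox sum was higher in ISX-9 than in DMSO, although wells with no Neurog3 read were shallower, with medians of 11841 reads in ISX-9 and 18683 in DMSO. After thinning, the share of ISX-9 wells with a Hox read rose with Neurog3, from 25.3% with no read to 37.7% and 40%. In DMSO the shares at these levels were 17.6%, 16% and 19.1%, without the fall seen in the sums.

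**Figure D4:**
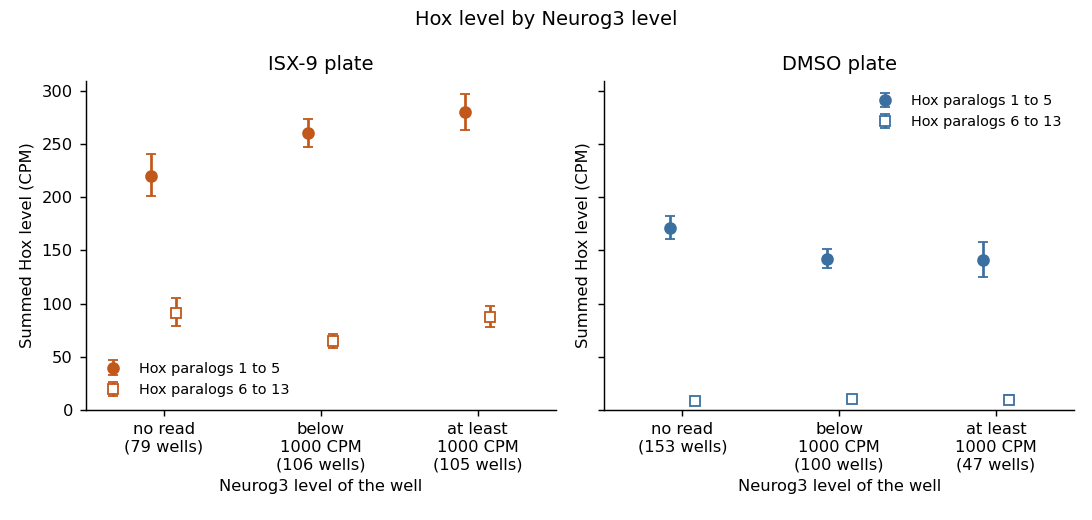
Summed level of Hox paralogs 1 to 5 (filled circles) and 6 to 13 (open squares) in CPM (y axis) in wells grouped by Neurog3 level (x axis, low to high), in the ISX-9 plate (left panel) and the DMSO plate (right panel). Bars are exact 95% Poisson intervals. Paralogs 6 to 13 lie between 64.9 and 91.4 CPM in ISX-9 and between 8.74 and 10.3 CPM in DMSO at every Neurog3 level.

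Single members differed by Neurog3 level in different directions. In ISX-9, 6 members had at least 100 reads over the wells compared, and 2 were at least 2-fold higher at high Neurog3, where 8.0% of 7667 genes were: Hoxa2, with 5.88, 28.7 and 24.0 CPM from no read to at least 1000 CPM of Neurog3, and Hoxa3, with 8.60, 34.5 and 35.9 CPM. None of the 6 was at least 2-fold lower, where 6.05% of genes were. In DMSO, 4 members had as many reads, 0 were higher, where 6.89% of 7915 genes were, and 2 were lower, where 4.4% were: Hoxb3, with 26.8, 23.3 and 7.68 CPM, and Hoxb4, with 31.1, 35.0 and 7.20 CPM. These calls rested on few wells, and each of the 4 members reached 100 reads mainly through the set where it was higher. Leaving out the highest well was added after these values were seen. Hoxa2 had 89 reads in 5 of 105 ISX-9 wells at high Neurog3, 55.1% of them from 1 well, and 13 reads in 2 of 79 wells with no Neurog3 read, 12 of them from 1 well. Without the highest well at high Neurog3 its log2 ratio was 0.57 in place of 1.42, under the 2-fold limit, and without the highest well of both sets it was 1.56. Hoxa3 had 133 reads in 11 wells at high Neurog3 and 19 reads in 5 wells with no Neurog3 read, and its log2 ratio of 1.59 became 1.33 without the highest well at high Neurog3 and 1.98 without that of both sets. In DMSO, Hoxb3 had 16 reads in 6 of 47 wells at high Neurog3 and 144 reads in 18 of 153 wells with no Neurog3 read, and its log2 ratio of -1.33 became -1.47 without the highest well of both sets. Hoxb4 had 15 reads in 4 wells at high Neurog3, 73.3% of them from 1 well, and 167 reads in 19 wells with no Neurog3 read, and its log2 ratio of -1.56 became -2.05. Of these 4 calls, that of Hoxa2 was lost when 1 well was left out, and in ISX-9 Hoxb3 gained one, with a log2 ratio of -1.33 without its highest well at high Neurog3, in place of -0.59. Hoxa5 stood highest at high Neurog3 in both plates, with 87.3, 77.2 and 121 CPM in ISX-9 and 47.2, 36.2 and 78.7 CPM in DMSO. Hoxc6 in ISX-9 had 36.2 CPM with no Neurog3 read, 2.21 CPM at low and 31.9 CPM at high Neurog3.

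A larger difference lay between wells with Chga and wells with Muc2, a comparison chosen after its values were seen. Wells with at least 1000 CPM of Chga, which encodes the endocrine granule protein chromogranin A, were set against wells with at least 1000 CPM of Muc2, the goblet cell mucin, leaving out 1 ISX-9 and 2 DMSO wells with both. In ISX-9 the Hox sum was 779 CPM in 65 Chga wells and 135 CPM in 42 Muc2 wells, and in DMSO 397 CPM in 62 Chga wells and 72.0 CPM in 82 Muc2 wells. Cluster b was higher in Chga wells in both plates. Its level was 429 CPM (399 to 460) in Chga wells and 27.5 CPM (19.5 to 37.8) in Muc2 wells of ISX-9, and 229 CPM (209 to 249) in Chga wells and 1.31 CPM (0.424 to 3.05) in Muc2 wells of DMSO. Reads of cluster b were found in 37 of 65 Chga and 7 of 42 Muc2 wells in ISX-9, and in 28 of 62 Chga and 4 of 82 Muc2 wells in DMSO.

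By summed level, the other clusters were also higher in Chga wells, except cluster d in DMSO. Cluster a had 238 CPM in Chga wells and 102 CPM in Muc2 wells of ISX-9, and 151 CPM and 60.3 CPM in those of DMSO. Cluster c had 99.3 CPM in Chga wells and 3.62 CPM in Muc2 wells of ISX-9, and 17.5 CPM and 3.39 CPM in those of DMSO, where the Chga reads came from 4 wells, 61.5% of them from 1 well. Its reads in Muc2 wells came from 1 well in each plate. Cluster d had 12.5 CPM in Chga wells and 2.17 CPM in Muc2 wells of ISX-9, but no read in Chga wells and 7.05 CPM in Muc2 wells of DMSO. In ISX-9 these levels were 23 reads in 5 of 65 Chga wells (7.69%) and 3 reads in 3 of 42 Muc2 wells (7.14%). After thinning, 0 wells of either ISX-9 set had a read of cluster d. Paralogs 6 to 13 had 230 CPM in Chga wells and 10.1 CPM in Muc2 wells of ISX-9, and 33.3 CPM and 4.18 CPM in those of DMSO, so they were also higher in ISX-9 than in DMSO among Chga wells taken alone.

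**Figure D5:**
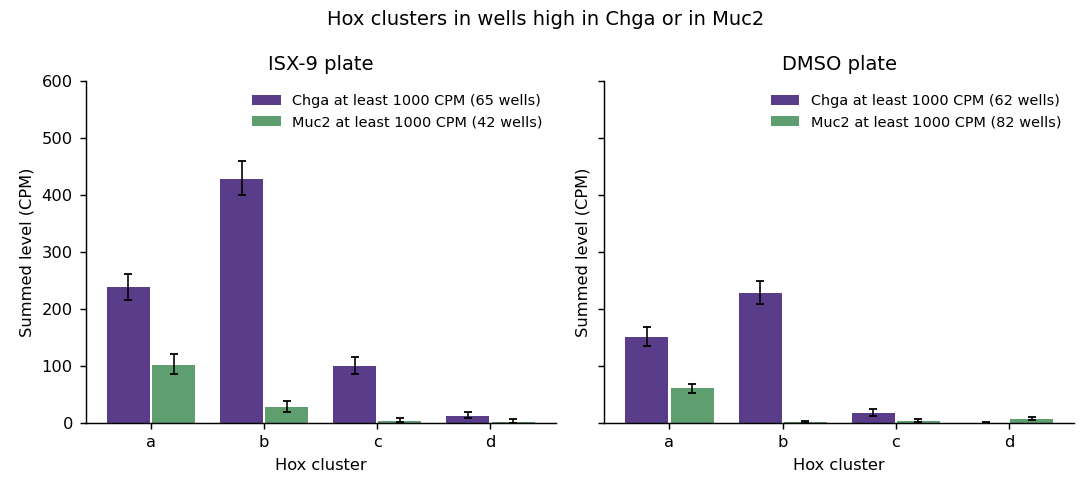
Summed level of each Hox cluster (x axis) in CPM (y axis) in wells with at least 1000 CPM of Chga (left bars) and wells with at least 1000 CPM of Muc2 (right bars), in the ISX-9 plate (left panel) and the DMSO plate (right panel). Error bars are exact 95% Poisson intervals. Cluster b stood at 429 CPM in Chga wells and 27.5 CPM in Muc2 wells of ISX-9, and at 229 and 1.31 CPM in those of DMSO.

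Of members with at least 100 reads over these wells, 3 of 3 in ISX-9 were at least 2-fold higher in Chga wells, where 17.1% of 5473 genes were, and 3 of 4 in DMSO, where 12.5% of 7044 genes were. They were Hoxa5, Hoxb3 and Hoxb4 in both plates, and no member with as many reads was at least 2-fold lower, where 9.7% of genes were in ISX-9 and 8.35% in DMSO. Hoxb3 and Hoxb4 reached 100 reads through Chga wells, with 10 and 16 reads in Muc2 wells of ISX-9 and 0 and 5 in DMSO. Their calls are therefore not independent of the limit. Members below the limit differed. Hoxa3 was near equal, at 24.4 (Chga) and 22.4 CPM (Muc2) in ISX-9, and 13.9 and 15.1 CPM in DMSO. Hoxc6 had 43.4 CPM in ISX-9 and 16.6 CPM in DMSO in Chga wells, and no read in Muc2 wells. Hoxb4 stood at 152 CPM in Chga wells and 11.6 CPM in Muc2 wells of ISX-9, and at 116.5 and 1.31 CPM in those of DMSO. Hoxb3 stood at 101 CPM in Chga wells and 7.24 CPM in Muc2 wells of ISX-9, and at 73.8 CPM in Chga wells with no read in 82 Muc2 wells of DMSO. Hoxa5 stood at 152 CPM in Chga wells and 69.5 CPM in Muc2 wells of ISX-9, and at 87.7 and 20.4 CPM in those of DMSO. The fourth in DMSO, Hoxa2, was closer, at 27.4 CPM in Chga wells and 16.7 CPM in Muc2 wells. In DMSO, 44.8% of the Hoxb4 reads in Chga wells came from 1 well. Without the highest well of each set the log2 ratio of Hoxb4 was 3.66 in ISX-9, in place of 3.24, and 3.70 in DMSO, in place of 4.27. That of Hoxb3 was 3.90 in ISX-9, in place of 3.11, and 3.77 in DMSO, in place of 3.98, and that of Hoxa5 was 1.30 in ISX-9, in place of 1.07, and 2.49 in DMSO, in place of 1.87, so each stayed at least 2-fold higher. Without the highest well of each set, the log2 ratio of cluster b was 4.54 in ISX-9, in place of 3.74, and 5.09 in DMSO, in place of 5.21. Median depths were 17226 reads in Chga and 13357.5 in Muc2 wells of ISX-9, and 15730 and 36002.5 reads in those of DMSO, where the deeper wells had the fewer Hox reads. After thinning, cluster b was read in 19 Chga and 2 Muc2 wells of ISX-9, and in 15 Chga and 0 Muc2 wells of DMSO.

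Genes that act with the Hox genes were described by lists. Of all genes with at least 100 reads, 5.33% were at least 2-fold higher in ISX-9 and 1.11% lower, to be set beside each list. Of 7 measured TALE cofactors with at least 100 reads, 1 was at least 2-fold higher in ISX-9 and 0 lower, with a median log2 ratio of 0.54 beside 0.15 for all genes. Meis3 stood at 23.8 CPM in ISX-9 and 5.08 CPM in DMSO (log2 ratio 1.51) and Meis2 at 9.74 and 2.85 CPM (0.91), while Pbx2 had 43.9 and 28.6 CPM (0.54). Cdx1 and Cdx2, homeobox regulators of intestinal identity, were close in both plates, at 90.9 CPM in ISX-9 and 105.7 CPM in DMSO, and at 48.7 and 42.2 CPM. Of 20 Polycomb genes, whose products keep Hox clusters silent, 0 passed 2-fold in either direction (median 0.41), with Cbx7 at 23.4 CPM in ISX-9 and 11.5 CPM in DMSO. Of 7 Trithorax and H3K27 demethylase genes, which oppose them, 0 passed 2-fold (median 0.29).

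Of 8 retinoic acid pathway genes, which act upstream of Hox genes in the embryo, 2 were at least 2-fold higher in ISX-9 and 0 lower (median 0.31): Aldh1a1, an enzyme that makes retinoic acid, at 30.9 CPM in ISX-9 and 6.91 CPM in DMSO, and the receptor gene Rarg at 34.2 and 13.1 CPM. Of 9 genes that lie beside the Hox clusters, 2 were higher and 0 lower (median 0.45). The 2 were Ttll6, a tubulin-modifying enzyme gene, at 123.5 CPM in ISX-9 and 26.97 CPM in DMSO, and the coactivator gene Calcoco1 at 129 and 56.9 CPM. With lists this short, beside 5.33% of all genes higher, counts of 1 or 2 genes do not show a shift of a list. Of the fixed non-coding and Evx genes of the clusters, Evx1 alone had a row, with 30 reads in ISX-9 and 18 in DMSO. Markers of gut segment with at least 100 reads had close levels in the ISX-9 and DMSO plates. The proximal genes Gata4 and Onecut2 stood at 171 and 532 CPM in ISX-9 and at 169 and 523 CPM in DMSO. The distal gene Osr2 stood at 70.2 CPM in ISX-9 and 73.7 CPM in DMSO. The proximal gene Cyp2b10, with 8 reads in ISX-9 and 34 in DMSO, differed more, at 0.678 and 2.30 CPM.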

How the data were processed

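Single RFP-positive cells of mouse intestinal organoids were sequenced by a CEL-Seq2 type protocol from the poly(A) tail, 1 plate for each treatment, per the labels' protocols. The authors deposited a count of reads per gene and well for each plate. The submitters' processing notes name BWA and the build hg19, while the gene rows carry mouse symbols, and all 32 Hox genes lie on the chromosome that GENCODE M21 gives for them. No source used here gives the rule for reads shared by overlapping genes, and the values are reads and not collapsed molecules.

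A gene without a row in 1 plate was taken as 0 there. Wells with at least 2000 reads and 500 genes outside spike-in and mitochondrial rows were kept, and doublets were not called. Kept wells had 2007 to 326339 reads in ISX-9 and 2295 to 489134 in DMSO. Reads were summed over wells, scaled to CPM and compared as log2 of (CPM + 5), with exact 95% intervals for counting error. With 1 plate for each treatment no test was made, and a member was called at an absolute log2 ratio of 1. Wells were thinned once to 2000 reads with a fixed seed. Every member with at least 100 reads was named with its values, and for the 8 of them with the most reads the share from the highest well and the thinned share were added. From other lists, up to 4 genes with the largest absolute log2 ratio among those with 100 reads were named. The enterochromaffin markers, the markers of other cell types and of gut segment, Evx1, Hoxa4, Hoxa9, Hoxb8 and Hoxc10 were named outside this rule after their values were seen. The members and lists were chosen with earlier results of these data known. The grouping into paralogs 1 to 5 and 6 to 13, the Chga and Muc2 comparison of single clusters and members, and the exclusion of wells with markers of other cells were chosen after seeing the data. Homeodomain sequences, planned at first, were not used here, and some genes are not reported here. Alternatives changed the total, the scaling, the pseudocount, the filters on wells and reads, the Neurog3 limit and the depth. The scripts were tested on simulated data. Python 3.11.15 with numpy 2.4.6, scipy 1.17.1, pandas 2.3.3 and matplotlib 3.10.9 was used.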

Additional observations from a re-analysis of the deposited data

Results flagged for a closer look

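Hox reads were also present in wells outside the comparisons, above the 3 reads that a count of 0 allows. The 94 ISX-9 wells left out for low depth held 42 Hox reads in 13 wells (13.8%, exact 95% interval 7.57 to 22.5), or 378 CPM (273 to 512). The 84 DMSO wells left out held 19 Hox reads in 6 wells (7.14%, 2.67 to 14.9), or 119 CPM (71.6 to 186). In each plate 12 of these reads came from 1 well.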

How the results depend on the processing

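The log2 ratio of the Hox sum between plates (1.03) was positive under every alternative run. It was 0.67 as a mean over wells, 0.87 with median-of-ratios scaling, 0.78 with ERCC scaling, 1.20 without the top 5% of wells by reads, 0.85 after thinning and 1.19 without wells with a neural marker read. The first scaling divides ISX-9 levels by 1.12 and the second by 1.19 (0.17 and 0.25 on the log2 scale) before 5 CPM is added, so genes of low level shift by less. Over 16 alternatives paralogs 6 to 13 ranged from 1.91 to 2.99 and paralogs 1 to 5 from 0.37 to 0.99, and over 11 alternatives cluster a ranged from 0.44 to 0.96, b from 0.58 to 1.11, c from 1.49 to 2.73 and d from 0.64 to 1.35. Members at least 2-fold higher in ISX-9 numbered 7 after thinning and 5 with no filter on reads, in place of 3, and 1 was lower after thinning, in place of 0. They numbered 2 with 10 CPM added, where Hoxb6 (0.81) lost the call, and 4 with 1 CPM added or without the highest well. Hoxa2 turned to -0.65 as a mean over wells and -1.05 after thinning, and Hoxb4 to -0.0075 as a mean over wells. High over no Neurog3 gave, in ISX-9, 0.46 as a mean over wells, 0.53 without the highest well and 0.56 after thinning, in place of 0.23. In DMSO it gave -0.78 as a mean over wells, -0.86 after thinning and 0.34 with the limit at 500 CPM, in place of -0.26. The cause of these shifts was not tested. No paired analysis was possible because each treatment has 1 plate. Depth limits members with few reads, and intervals leave out the spread between plates.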

Other observations

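Mira, a non-coding RNA gene of the Hoxa cluster on chromosome 6 in the RefSeq table, lies outside the symbol rule and was looked up after its values were seen. It had 369 reads in 68 ISX-9 wells (23.4%), or 31.3 CPM (28.2 to 34.6), and 139 reads in 30 DMSO wells (10%), or 9.42 CPM (7.92 to 11.1). The ratio was 3.32-fold (2.72 to 4.06). GENCODE M21 has 0 rows of this name, so its overlap with Hox genes was not analysed here.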
